A study of Mus musculus with 6 samples.

Results

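MHC class I molecules and the machinery that makes and loads their peptides were followed in mouse N2A neuroblastoma cells after knockdown of the transcription factor gene Pax6. The genes were taken by name, as every symbol that begins with H2- and then D, K, L, M, Q or T, plus 16 named genes of peptide production, transport, loading and control and of distant class I-like molecules. This gave 36 genes with a probe set of their own out of 19938 on the array, and 21 of the 36 passed a filter on low values and were tested. A further 8 probe sets name several H2 genes at once, and 6 of them were tested as probe sets. By name the rule also takes H2-DMa, a class II peptide exchange gene, and H2-Ke6, an enzyme gene of the MHC region that is no MHC chain. The rule compares no groups, and of measured values it uses only the mean over all 6 arrays, to choose a gene's probe set. The genes were, however, chosen with earlier results of these data known.

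A class I molecule is a heavy chain paired with beta-2-microglobulin and a short peptide. Proteasomes cut cytosolic proteins into peptides, the TAP transporter moves these into the endoplasmic reticulum, aminopeptidases trim them there, and tapasin with general chaperones loads them onto the heavy chain for display to cytotoxic T cells. Interferons raise much of this machinery through interferon regulatory factors and the transactivator NLRC5, and neurons and neuroblastoma cells are known for low class I display at rest.

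N2A is an established line from a mouse neuroblastoma. The 3 control cultures received a non-targeting vector, the 3 Pax6 knockdown cultures a vector for a short hairpin RNA against Pax6, each at 1.5 µg, and RNA was taken 3 days after transfection. Hairpins were driven by the U6 promoter from a plasmid that also carries eGFP, and the transfection was transient with no sorting described, so each culture holds transfected and untransfected cells. RNA of each culture was read on 1 array with probes along whole transcripts of mouse genes, and the number of arrays limits the precision.

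The targeted gene read log2 8.79, 8.82 and 8.81 with the control vector and 8.48, 8.30 and 8.50 with the Pax6 hairpin, which differ by -0.38 (log2, SE 0.071, adjusted p = 0.0382 by limma). It was lower in every knockdown array, and it missed the threshold once control replicate 1, 2 or 3 or knockdown replicate 3 was dropped (adjusted p = 0.120, 0.180, 0.141 and 0.126) and with a filter on variance (0.231). All 9 sympathetic neuroblast markers with a probe set, among them Phox2a and Hand2, were above the low-value filter, with mean log2 levels of 11.1 to 11.2 in control arrays and 10.9 to 11.0 in knockdown arrays. Of these 9, Dbh, which encodes the enzyme that makes noradrenaline, fell (log2 fold change -1.08). Of 10 leukocyte markers only Cd74, the class II invariant chain gene, passed the filter, while Ptprc, Csf1r, Itgam and Cd3e stayed below it at 6.24, 6.22, 6.01 and 7.26. Mean levels of the leukocyte list were 6.94 to 7.02 in control and 6.84 to 7.01 in knockdown arrays, with 0 of 1 called (0 at an unadjusted p under 0.05). Fibroblast markers (3 of 6 tested) and endothelial markers (1 of 5 tested) had 0 calls (0 at an unadjusted p under 0.05), with mean levels of 7.4 to 7.5 and 6.7 to 6.9 in control arrays and 7.3 to 7.5 and 6.7 to 7.0 in knockdown arrays. Any part of these marker levels in the class I values was not tested.

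Promoter sequences are shown for 4 genes: Erap1 and H2-M3, the members with the lowest adjusted p, and B2m and H2-D1, a light chain and a classical heavy chain gene. They are RefSeq windows of build GRCm38.p6 on the plus strand, printed 5′ to 3′ from 250 bases before the annotated start up to the start, or to the end of a motif that crosses it. Capitals mark 2 kinds of letters: CCAAT on either strand, the core of the Y box, and GAAA, any 2 bases and GAAA on either strand, the core of the interferon-stimulated response element.
Erap1, chr13:74639603-74639858: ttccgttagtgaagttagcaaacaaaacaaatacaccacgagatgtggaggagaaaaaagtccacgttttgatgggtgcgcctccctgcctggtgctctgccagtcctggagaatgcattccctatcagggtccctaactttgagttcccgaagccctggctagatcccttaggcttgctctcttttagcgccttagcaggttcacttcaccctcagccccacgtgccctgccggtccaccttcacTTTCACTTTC
H2-M3, chr17:37269984-37270233: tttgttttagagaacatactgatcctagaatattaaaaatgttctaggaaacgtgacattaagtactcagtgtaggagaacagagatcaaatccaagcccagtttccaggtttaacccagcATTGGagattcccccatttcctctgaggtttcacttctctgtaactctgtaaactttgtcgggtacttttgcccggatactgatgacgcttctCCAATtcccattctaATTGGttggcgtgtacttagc
B2m, chr2:122147437-122147686: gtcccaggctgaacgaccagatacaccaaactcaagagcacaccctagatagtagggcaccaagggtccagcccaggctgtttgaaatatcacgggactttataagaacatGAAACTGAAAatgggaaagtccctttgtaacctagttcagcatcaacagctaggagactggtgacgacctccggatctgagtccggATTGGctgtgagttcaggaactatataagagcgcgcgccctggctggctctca
H2-D1, chr17:35262844-35263093: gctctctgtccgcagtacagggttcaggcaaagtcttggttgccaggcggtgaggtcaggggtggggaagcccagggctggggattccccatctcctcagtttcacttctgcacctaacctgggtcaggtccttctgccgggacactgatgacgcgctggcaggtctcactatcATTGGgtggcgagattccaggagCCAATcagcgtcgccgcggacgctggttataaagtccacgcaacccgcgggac

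In the Erap1 window the interferon element core crosses the start, in B2m it lies further upstream, and the other 2 windows do not hold these letters. Both of those hold tttcacttct, which departs from the searched letters only at its end. Variants were not searched, so a window without the exact letters may still hold such an element. H2-M3 holds 3 Y box cores, H2-D1 2 and B2m 1. RefSeq windows of 300 bases (250 before and 50 after the start) were matched to 28 of the 36 genes. Among the 21 tested class I pathway genes 15 had a window, and Tap2, H2-Q5, H2-K2, H2-T10, Nlrc5 and Tapbpl had none. With the symbols of the tested shared probe sets added, 21 genes had a window, a different 21 from the tested pathway genes. Of these 21, the exact letters of the interferon element core were present in 5, against 3.44% of all 32851 windows. The 5 were B2m, Erap1, H2-T22, H2-T23 and Psme1. The Y box core was in 15 of 21 against 37.4%. The letters TTCACGC, a PAX6 paired-domain core, were in 3, namely Psmb8, Psmb9 and Tap1, against 1.26%. A homeodomain pair (TAAT, any 3 bases, ATTA) was in 0 of 21 against 0.487%. The windows of Psmb9 and Tap1 overlap, and related H2 genes have related promoters, so these windows are not independent. A match is a run of letters and not a measured binding site.

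No tested class I pathway gene was higher in the knockdown at a false discovery rate (FDR) of 10%, and 3 of 21 were lower: Erap1, H2-M3 and Tap2. Across all 11424 tested genes 3.88% were lower and 2.79% higher by limma. At an unadjusted p under 0.05 there were 7 class I pathway genes, all lower. Over all 11424 tested genes there were 2146, in either direction. The median log2 fold change of the 21 was -0.14, against 0.017 over all tested genes. Negative differences were found for 18 of 21, and for 5082 of the 11424. All 3 knockdown arrays lay below all 3 control arrays for 8 of the 21, where 11.7% of all tested genes did so, and above them for 0. Tapbpl, one of these 8 and 7, was above the array median on the 3 control arrays and 0 knockdown arrays, so it was tested only through the higher group. Without it 7 of 20 were apart and lower, 6 had an unadjusted p under 0.05, 17 were negative and the median was -0.13. Antigen presentation and endoplasmic reticulum are among the gene categories that the study tested on these samples, so the direction of these counts is not independent evidence. The arrays measure whole cultures, so fewer cells with these transcripts and less transcript per cell cannot be told apart.

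Control and knockdown arrays with the same replicate number deviated together, and with the replicate number as a block 8 of 21 were lower and 0 higher, against 8.91% lower and 8.96% higher over all tested genes. The 5 that passed only with the block were H2-Q5, B2m, Psmb10, Psmb8 and Tap1. Dropping control replicates 1, 2 and 3 in turn gave 1, 0 and 2 calls, and dropping knockdown replicates 1, 2 and 3 gave 3, 4 and 0, each lower. The count over all tested genes also moved in these fits, over the range given at the end, so these shifts are not particular to class I genes.

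Averaged over the 21 genes, the knockdown arrays lay at -0.097, -0.20 and -0.14 on the log2 scale relative to the control mean, and the control arrays at 0.092, -0.046 and -0.046. Averages over all tested genes lay between -0.068 and 0.065 on every array. Control replicate 1 thus stood above the other control arrays for these genes, and knockdown replicate 2 was the lowest array. In the knockdown arrays 14, 19 and 16 of the 21 genes were under their control mean, and in the control arrays 2, 15 and 16.

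**Figure D1:**
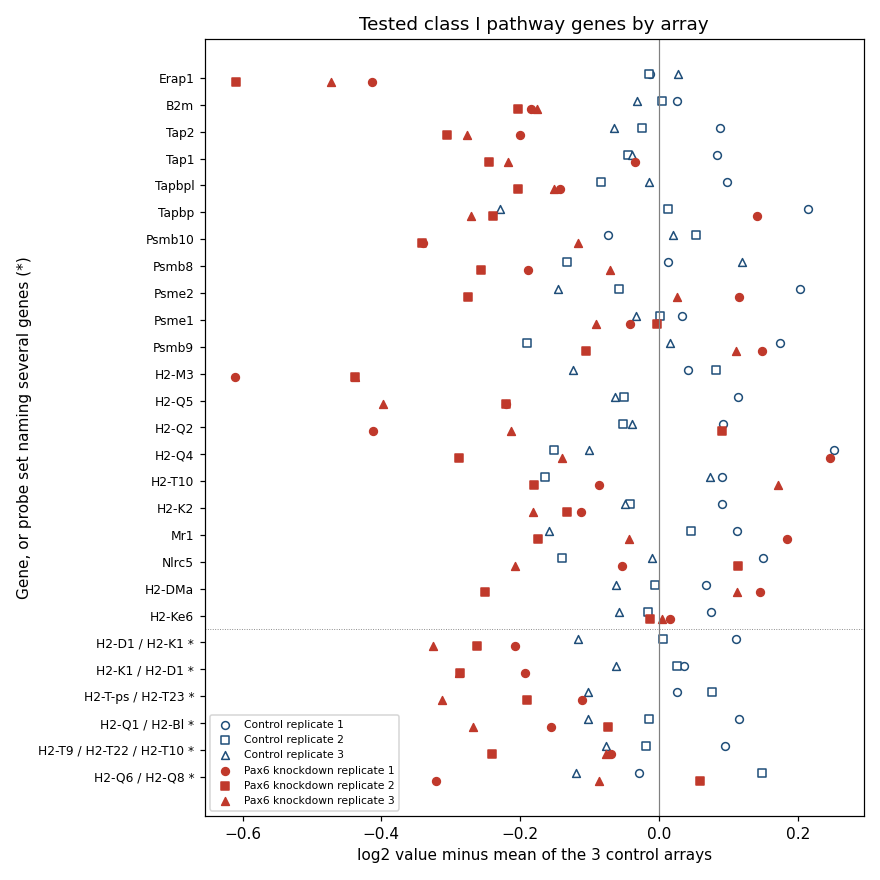
Each point is 1 array; the horizontal axis is the log2 value minus the mean of the 3 control arrays, and the vertical axis lists the 21 tested genes and, with an asterisk, the 6 tested probe sets that name several H2 genes (the pair of H2-D1 and H2-K1 sets also names LOC547349). Open blue symbols are control arrays, filled red symbols Pax6 knockdown arrays, and shape gives the replicate number; Erap1 and H2-M3 lie farthest to the left, with red and blue apart.

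Erap1 encodes the aminopeptidase that trims peptides in the endoplasmic reticulum to the length that class I molecules hold. On the log2 scale it read 8.73, 8.73 and 8.77 with the control vector and 8.33, 8.13 and 8.27 with the Pax6 hairpin. The control arrays were close together and every knockdown array was below them. Group means of 8.74 ± 0.024 (SD, n = 3) and 8.24 ± 0.10 (SD, n = 3) differ by -0.50 (SE 0.068, 95% confidence interval -0.66 to -0.34, adjusted p = 0.0175 by limma), so the signal fell by 29.2%. Of all tested genes 0.727% had a log2 fold change this low or lower. Dropping control replicate 2 or knockdown replicate 3 ended the call (adjusted p = 0.108 and 0.109), with a log2 fold change between -0.54 and -0.44 whichever array was left out.

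TAP1 and TAP2 are the subunits of the peptide transporter. Tap2 had log2 values of 10.35, 10.24 and 10.20 with the control vector and 10.06, 9.96 and 9.99 with the Pax6 hairpin. The groups did not overlap, though the gap between the lowest control and the highest knockdown array was small. The means of 10.26 ± 0.079 (SD, n = 3) and 10.00 ± 0.054 (SD, n = 3) gave a log2 fold change of -0.26 (SE 0.066, interval -0.41 to -0.11, adjusted p = 0.0828, 0.0294 with the block). Dropping control replicates 1, 2 and 3 raised its adjusted p to 0.205, 0.251 and 0.176, and dropping knockdown replicates 2 and 3 raised it to 0.101 and 0.262, so it passed in 1 of the 6 fits on 5 arrays. It also missed the threshold with no low-value filter (0.193), a filter at the 25th percentile (0.140) and the filter on variance (0.519).

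Tap1 levels on the log2 scale were 9.18, 9.05 and 9.06 with the control vector and 9.06, 8.85 and 8.88 with the Pax6 hairpin. The highest knockdown array reached the level of the lower control arrays, so the groups overlapped, but within each replicate number the knockdown array was lower. The log2 fold change was -0.17 (interval -0.34 to 0.012, adjusted p = 0.294, 0.0959 with the block). Tapbpl, a tapasin-related peptide editor, passed the low-value filter only through its control arrays, so its lower knockdown arrays are no result, and it did not pass the threshold (log2 fold change -0.17, interval -0.32 to -0.012, adjusted p = 0.232, 0.105 with the block). Tapbp, the tapasin gene, had a log2 fold change of -0.12 with a wide interval of -0.45 to 0.20 (adjusted p = 0.732), and its arrays overlapped. A pair of probe sets that name Tapbp together with the ribosomal protein gene Rps3a1 had differences of 0.034 and 0.037, with no call.

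H2-M3 encodes a nonclassical heavy chain that presents formylated peptides. Its log2 levels were 9.22, 9.26 and 9.05 with the control vector and 8.57, 8.74 and 8.74 with the Pax6 hairpin. Every knockdown array was below every control array, and replicate 1 had the lowest knockdown value. From means of 9.18 ± 0.11 (SD, n = 3) and 8.68 ± 0.10 (SD, n = 3), its log2 fold change was -0.50 (SE 0.081, interval -0.68 to -0.31, adjusted p = 0.0261), and the signal fell by 29.1%. Dropping control replicate 1 or 2 or knockdown replicate 3 ended the call (adjusted p = 0.105, 0.149 and 0.121). It is the 1 tested gene of 12 in the M region of the complex, so nothing can be said of its neighbours there beyond their levels.

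The classical heavy chains are read by shared probe sets. H2-K1 and H2-D1, with LOC547349, are named together by 2 of them, so their signal cannot be given to 1 gene. The set that lists H2-K1 first had log2 values of 12.42, 12.41 and 12.32 with the control vector and 12.19, 12.09 and 12.09 with the Pax6 hairpin. Its groups did not overlap, and its log2 fold change was -0.26 (SE 0.059, interval -0.39 to -0.12, limma adjusted p = 0.0743 over 13384 named probe sets, 0.0398 with the block). It fell in that fit, and the call ended on dropping control replicates 1, 2 and 3 (0.197, 0.273 and 0.164) and knockdown replicate 3 (0.238), with no low-value filter (0.176), at the 25th percentile filter (0.126), with the variance filter (0.545) and, narrowly, with array centring (0.103).

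The set that lists H2-D1 first had log2 levels of 12.35, 12.24 and 12.12 with the control vector and 12.03, 11.97 and 11.91 with the Pax6 hairpin. Its control arrays were more spread than those of the other set, and the groups again did not overlap. The log2 fold change was -0.26 (SE 0.074, adjusted p = 0.113), and it passed only with the block (adjusted p = 0.0371). Both sets gave nearly the same difference, and since they name the same genes they are not independent.

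Another shared set, for H2-T23, the nonclassical chain Qa-1, and the pseudogene H2-T-ps, had log2 levels of 8.41, 8.46 and 8.28 with the control vector and 8.27, 8.19 and 8.07 with the Pax6 hairpin. The lowest control array was barely above the highest knockdown array. Its log2 fold change was -0.21 (SE 0.076, adjusted p = 0.209, 0.0692 with the block). The remaining 3 tested sets did not pass in either fit, with log2 fold changes of -0.17 for H2-Q1 and H2-Bl, -0.12 for H2-Q6 and H2-Q8, and -0.13 for H2-T9, H2-T22 and H2-T10. In all, 1 of 6 shared sets was lower and 0 were higher (3 at an unadjusted p under 0.05), where 3.61% of named probe sets were lower. An unadjusted p under 0.05 was found for 2465 of all 13384 named probe sets, in either direction. With the block 3 of 6 were lower, against 7.94%. Groups were apart and lower for 3 of 6, against 11.4%, and the differences of all 6 were negative. The 2 untested sets, for H2-DMb2 with H2-DMb1 and for H2-T3 with H2-T18, had mean levels of 6.52 and 6.55.

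H2-Q5, a gene of the nonclassical Q region, had log2 levels of 10.71, 10.55 and 10.54 with the control vector and 10.38, 10.38 and 10.20 with the Pax6 hairpin. Its groups did not overlap, with control replicate 1 standing above the rest. The log2 fold change was -0.28 (SE 0.079, interval -0.46 to -0.097, adjusted p = 0.107, 0.0323 with the block). Of the other H2 heavy chain genes with their own probe set, the pseudogene H2-K2 had a log2 fold change of -0.14 (adjusted p = 0.284, arrays apart), H2-Q2 -0.18 (0.498), H2-Q4 -0.060 (0.893) and H2-T10 -0.032 (0.920). The last 3 had overlapping groups, and H2-Q4 and H2-T10 changed sign when 1 array was left out. H2 heavy chain genes are close copies of one another, and a probe set may take up transcript of a relative, so values of single H2 genes are uncertain.

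B2m, the light chain shared by all these heavy chains, had log2 levels of 13.35, 13.33 and 13.29 with the control vector and 13.14, 13.12 and 13.15 with the Pax6 hairpin. Both groups were tight and did not overlap. The means of 13.33 ± 0.029 (SD, n = 3) and 13.14 ± 0.014 (SD, n = 3) gave a log2 fold change of -0.19 (SE 0.055, interval -0.32 to -0.061). It missed the threshold as fitted (adjusted p = 0.115) and passed with the block (0.0685). The difference was -0.21, -0.21 and -0.14 in replicates 1, 2 and 3, and it missed the threshold in all 6 fits on 5 arrays (adjusted p up to 0.337).

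Psmb8, Psmb9 and Psmb10 encode the catalytic subunits that interferon brings into the immunoproteasome. Psmb10 had log2 levels of 9.93, 10.06 and 10.02 with the control vector and 9.66, 9.66 and 9.89 with the Pax6 hairpin. Its groups did not overlap, although knockdown replicate 3 lay close to the lowest control array. Its log2 fold change was -0.27 (SE 0.080, interval -0.45 to -0.081, adjusted p = 0.123, 0.0467 with the block).

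For Psmb8 the log2 levels were 8.68, 8.53 and 8.78 with the control vector and 8.48, 8.41 and 8.60 with the Pax6 hairpin. These overlapped, and the knockdown array was lower within each replicate number, giving a log2 fold change of -0.17 (interval -0.37 to 0.023, adjusted p = 0.323, 0.0884 with the block). Psmb9 had a log2 fold change of 0.052 (interval -0.20 to 0.30, adjusted p = 0.864) and changed sign when 1 array was left out. In the order Psmb9, Tap1, Psmb8 and Tap2 these genes lie next to each other on chromosome 17 with no other measured gene between them, and the differences of the 4 were 0.052, -0.17, -0.17 and -0.26. Psme1 and Psme2, the interferon-inducible proteasome activator subunits, had log2 fold changes of -0.044 (interval -0.18 to 0.090) and -0.045 (interval -0.33 to 0.24), with overlapping groups.

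**Figure D2:**
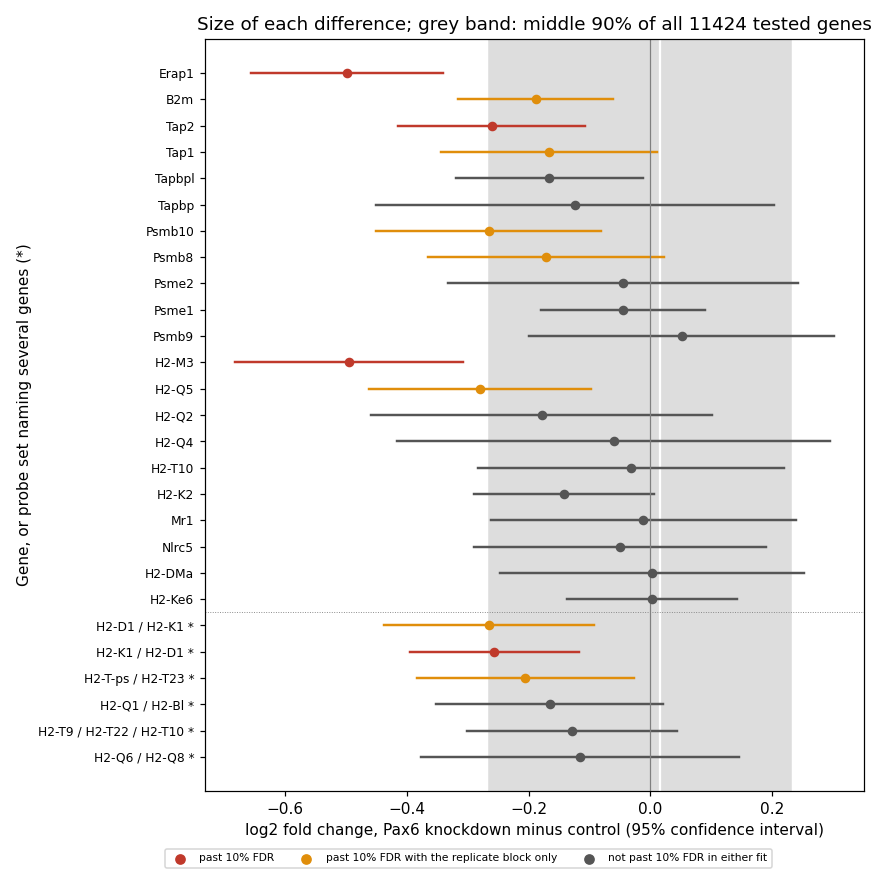
Log2 fold change of each tested gene and shared probe set (horizontal axis, Pax6 knockdown minus control) with its 95% confidence interval from the limma fit; the grey band spans the middle 90% of all 11424 tested genes (-0.26 to 0.23) and the white line is their median of 0.017. Red marks those past 10% FDR, orange those that passed only with the replicate block and grey the rest; sets with an asterisk come from the fit over 13384 named probe sets, and Erap1, H2-M3, H2-Q5 and Psmb10 lie below the band.

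Mr1, which presents vitamin B metabolites, had a log2 fold change of -0.011 (interval -0.26 to 0.24), and H2-DMa 0.0027 (-0.25 to 0.25). H2-Ke6 had 0.0028 (-0.14 to 0.14), and all 3 changed sign under some settings. Nlrc5, the transactivator of class I genes, is read by 19 probe sets, and its brightest one gave -0.049 (interval -0.29 to 0.19, adjusted p = 0.866). Over the 19 sets the differences ran from -0.12 to 0.16 and the mean levels from 5.31 to 10.2, and 0 of the 8 tested sets was called (0 at an unadjusted p under 0.05).

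Below the filter lay 15 members: H2-Q10, H2-T24, Cd1d1, which presents lipids, Hfe, a regulator of iron uptake, and 11 of the 12 H2-M genes. Their mean levels ran from 5.23 to 7.53 and their differences from -0.14 to 0.19, with 7 negative and 8 positive. The groups did not overlap for 1 of the 15, H2-M5, which was lower in the knockdown.

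A list of class I assembly genes held 12 tested genes: chaperones, folding enzymes, glucosidases, the channel subunits Sec61a1 and Sec61b, and Bcap31. Of these 12, 4 fell and 0 rose, and with the block 8 fell and 0 rose. Over all tested genes 3.88% were lower, or 8.91% with the block. All 12 differences were negative, with a median of -0.23, and the arrays were apart and lower for 10, against 11.7% of all tested genes. These proteins serve most secreted and membrane proteins and not class I alone.

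Prkcsh, the beta subunit of glucosidase II, had log2 levels of 11.81, 11.84 and 11.71 with the control vector and 11.46, 11.44 and 11.38 with the Pax6 hairpin (log2 fold change -0.36, SE 0.063, adjusted p = 0.0310). Bcap31, an endoplasmic reticulum membrane protein that handles newly made class I chains, had log2 levels of 12.39, 12.31 and 12.23 in control and 12.002, 11.92 and 11.90 in knockdown cultures (log2 fold change -0.37, SE 0.067, adjusted p = 0.0351). The knockdown arrays of both genes were well under the control arrays. P4hb, a protein disulphide isomerase, had a log2 fold change of -0.27 (adjusted p = 0.0632) and Ganab, the alpha subunit of glucosidase II, -0.24 (0.0826). The 3 chaperones of the class I loading complex, named here after their values were seen, did not pass: Pdia3 (ERp57) had a log2 fold change of -0.22 (0.116, 0.0497 with the block), Calr, calreticulin, -0.12 (0.335) and Canx, calnexin, -0.11 (0.333).

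Of 15 tested interferon-response genes outside the class I pathway, 7 fell and 0 rose, or 10 and 0 with the block, against 3.88% and 8.91% of all tested genes lower. Their median was -0.36, and 11 had arrays apart and lower, against 11.7%. This list was drawn up with earlier results known, so its direction is not independent evidence. The 4 with the lowest adjusted p were Usp18, a brake on interferon signalling (log2 fold change -0.61, adjusted p = 0.0289), Oasl2, an antiviral gene (-0.50, 0.0302), Irf7, an interferon regulatory factor (-0.53, 0.0371), and Trim21, a cytosolic antibody receptor and ubiquitin ligase (-0.55, 0.0451).

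Usp18 had log2 levels of 9.61, 9.60 and 9.40 with the control vector and 8.98, 8.73 and 9.08 with the Pax6 hairpin. The log2 levels of Irf7 were 8.04, 8.04 and 7.88 in control and 7.44, 7.29 and 7.64 in knockdown cultures. In both genes knockdown replicate 2 was the lowest array, as it was for the class I pathway average, and the groups did not overlap. Irf7 was above the array median on 3 control arrays and 1 knockdown array, so its high group alone carried it through the filter. Its lower knockdown arrays are therefore no result. The 7 interferon-response genes that fell and the 11 with arrays apart include it, so both counts rest in part on the filter.

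The 22 tested regulators of class I genes, which are interferon receptors, JAK kinases, STAT and IRF factors, RFX and NF-Y subunits and others, had 0 calls by limma, with 2 higher and 2 lower at an unadjusted p under 0.05 and a median of 0.014. Over all 11424 tested genes, 2.79% were higher and 3.88% lower by limma, and 2146 had an unadjusted p under 0.05. With the block 2 were higher and 2 lower, against 8.96% and 8.91% of all tested genes. Irf9, part of the factor that type I interferon activates, had log2 levels of 9.50, 9.57 and 9.26 with the control vector and 9.23, 8.997 and 9.06 with the Pax6 hairpin. Its groups did not overlap (log2 fold change -0.35, adjusted p = 0.107, 0.0393 with the block). Jak2, a kinase of the interferon-gamma receptor, had a log2 fold change of the opposite sign, 0.35 (0.155, 0.0343 with the block). Its groups did not overlap either, with every knockdown array above every control array. The subunits of the RFX complex that binds class I promoters, Rfx5, Rfxap and Rfxank, named after their values were seen, had log2 fold changes of -0.050, -0.042 and 0.055. Of the 22 differences 10 were negative, as were 5082 of all 11424 tested genes. Whether this list differs from the class I pathway genes was not tested.

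Constitutive proteasome genes gave 0 calls of 17 (1 higher and 0 lower at an unadjusted p under 0.05; 0 calls with the block), with a median of 0.045. The 2 with the lowest p were the activator gene Psme4 (log2 fold change 0.18, adjusted p = 0.164) and the catalytic subunit gene Psmb1 (0.096, 0.663). Peptidases of cytosol and vesicles gave 0 of 9 (1 higher and 0 lower at an unadjusted p under 0.05), with a median of 0.085. With the block 1 of the 9 was higher and 0 lower. Over all tested genes 2.79% were higher and 3.88% lower, or 8.96% and 8.91% with the block. In lists this short 0 calls cannot be told apart from those shares. Ide, the insulin-degrading enzyme, had a log2 fold change of 0.23 (0.116, 0.0685 with the block) and Lgmn, an asparaginyl endopeptidase of lysosomes, -0.12 (0.295). Most of these general proteases lay slightly above 0, as did most tested genes, of which 5082 of 11424 were negative. Erap1 lay at -0.50.

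Class II genes had 1 lower of 3 tested, where 3.88% of all tested genes were lower. It was H2-Oa, a modulator of class II peptide exchange, which had log2 levels of 7.98, 8.06 and 7.93 with the control vector and 7.58, 7.68 and 7.56 with the Pax6 hairpin. Its groups were apart (log2 fold change -0.38, SE 0.065, adjusted p = 0.0289). Cd74 had a log2 fold change of 0.16 (0.287), with every knockdown array above every control array. H2-Eb1 had 0.17 (0.325), with overlapping groups. It was above the array median on 1 control array and 3 knockdown arrays, so its high group alone carried it through the filter. The H2-Eb1 difference is therefore no result, though the gene counts among the 3 tested. Of the stress ligands and distant class I-like genes 1 was tested, Procr, the protein C receptor with a class I-like fold, and it was lower (log2 fold change -0.25, SE 0.064, adjusted p = 0.0808). Over all these lists 13 of 79 tested genes passed, all lower and Irf7 among them. Across all tested genes 3.88% were lower and 2.79% higher. Dropping control replicates 1, 2 and 3 gave 1, 0 and 8 of the 79, and dropping knockdown replicates 1, 2 and 3 gave 13, 16 and 1. The count over all tested genes moved too, as given below.

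Genes that share the MHC region with the class I genes had calls in both directions. Between H2-K2 and H2-M2 on chromosome 17, in RefSeq order, 74 other genes were tested, with a median of -0.0088. Of these 74, 2 were higher and 3 lower (4 and 7 with the block). Over all tested genes 2.79% were higher and 3.88% lower (8.96% and 8.91% with the block). Without the block the counts are near those shares. The higher ones were Cdsn, a skin adhesion gene (log2 fold change 0.67, adjusted p = 0.00345), and Ddah2 (0.27), and the lower ones Ppp1r10 (-0.29), Ppt2 (-0.27) and Atf6b (-0.26). These 5 were named after their values were seen. The 12 tested members of the same stretch, H2-DMa and H2-Ke6 among them, had a median of -0.15. Of these 12, 0 were higher and 2 lower, and 5 lower with the block, against the same shares of all tested genes.

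**Figure D3:**
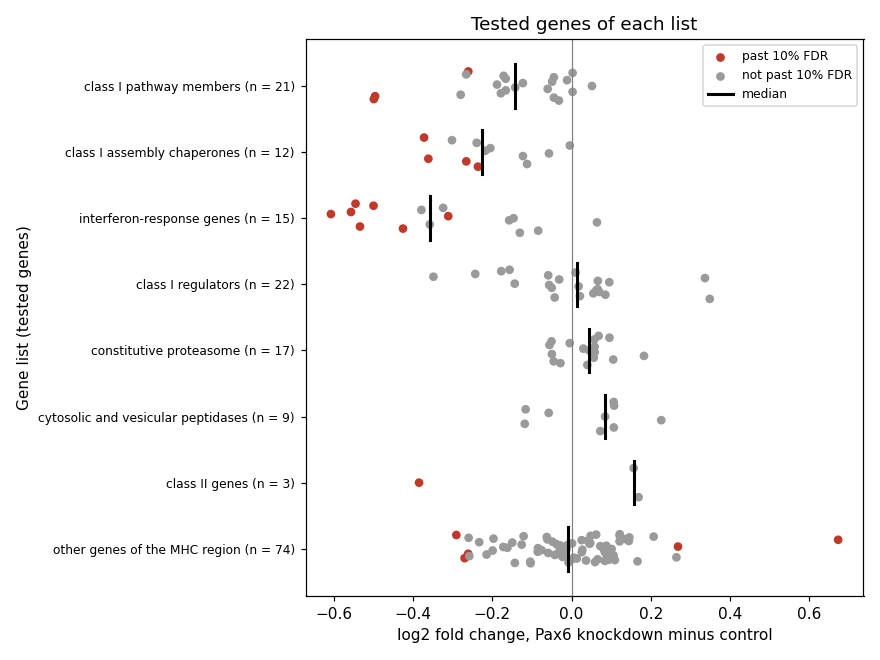
Each point is 1 tested gene, the horizontal axis its log2 fold change (Pax6 knockdown minus control), and each row a gene list with its number of tested genes; red points passed 10% FDR, black bars are medians and vertical scatter within a row only separates points. The class I pathway, chaperone and interferon-response rows lie mostly left of 0 (medians -0.14, -0.23 and -0.36), and the regulator, constitutive proteasome and MHC region rows lie around it (0.014, 0.045 and -0.0088).

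Calls on single genes moved with the settings. Erap1 passed in 13 of 15 alternative fits that tested it, H2-M3 in 12 of 15 and Tap2 in 8 of 16. H2-Q5 passed in 7 of 16, B2m in 5 of 15 and Psmb10 in 4 of 16. The log2 fold change over all of these fits ran from -0.54 to -0.44 for Erap1, from -0.56 to -0.42 for H2-M3, from -0.29 to -0.22 for Tap2 and from -0.20 to -0.17 for B2m. It moved more for H2-Q5, from -0.34 to -0.22, and for Psmb10, from -0.34 to -0.16. Erap1 and H2-M3 were not above a filter set at the 75th percentile and have no value there, and B2m has none with the filter on variance.

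**Figure D4:**
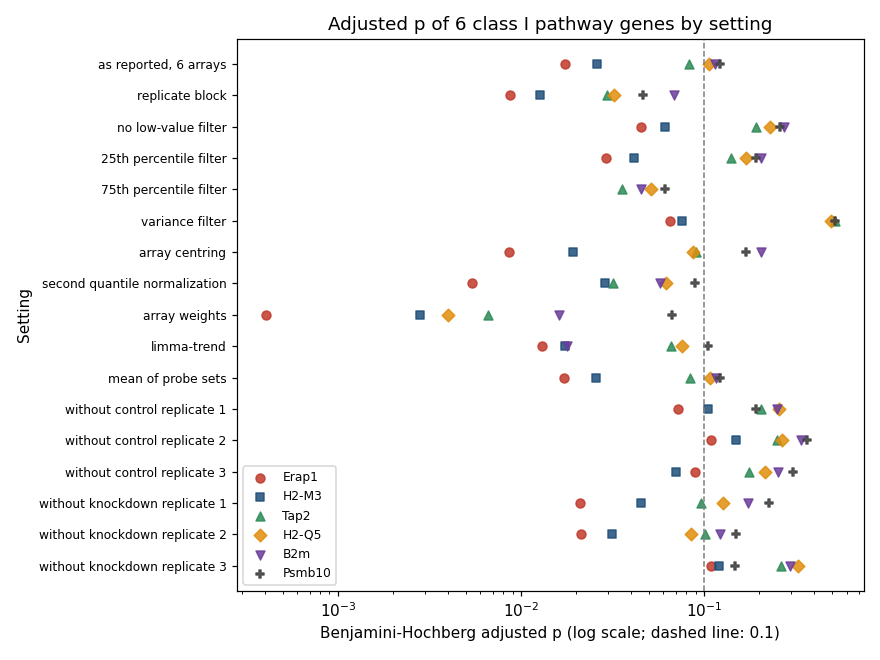
Adjusted p of 6 class I pathway genes (horizontal axis, log scale) under each setting (vertical axis), with a dashed line at 0.1; points left of it passed 10% FDR. Erap1 and H2-M3 lie left of the line in most settings, while leaving out control replicate 2 or knockdown replicate 3 moved Erap1, H2-M3 and Tap2 to the right of it, where H2-Q5, B2m and Psmb10 lay already.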

How the data were processed

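The authors deposited log2 summaries of 35556 probe sets on 6 arrays, after RMA background correction and quantile normalization between the arrays according to the study's methods. The versions, the genome build and the height of their low-value filter are not given in the sources used here. Such normalization hides a change in total RNA, and RMA compresses differences near background, so small falls of dim genes are understated.

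The platform annotation gave 1 symbol to 21789 probe sets, several to 1621 and none to 12146, and 21698 of the identifiers of the first kind were in the RefSeq table of GRCm38.p6. Each gene was read from its 1-symbol probe set of highest mean over all 6 arrays and was tested if above the array-wide median on at least 3 arrays, which left 11424 of 19938 genes. Array medians lay between 7.49 and 7.59. Fcgrt and H2-L were not analysed here. The groups were fitted with limma 3.58.1 in R 4.3.3 (lmFit, eBayes, two-sided, Benjamini-Hochberg over all tested genes, 10% FDR). Probe sets with several symbols were fitted among all 13384 named probe sets above the same filter. Adjusted p-values in the text are from these fits. The script was tested on simulated data.

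The class I genes and the other gene lists were chosen with earlier results of these data known. Every member was accounted for, those past 10% FDR with or without the replicate block were given in full, and from each other list up to 4 genes past 10% FDR, or 2 with the lowest p, were named, with exceptions stated. The study's methods call the samples biological replicates. The labels number them 1 to 3 in both groups, without a meaning for the number. Residuals from the group means correlated at 0.574, 0.323 and 0.230 within numbers 1, 2 and 3. Each is above 0.1, and on that ground alone, with no batch or day stated, the arrays were treated as paired in the fit with a block. Control replicate 3 and knockdown replicate 2 also reached 0.178. The alternatives were the replicate block, other low-value filters, a variance filter, array centring, a second quantile normalization, array weights, an intensity trend, the mean of a gene's probe sets and leaving out each array.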

Additional observations from a re-analysis of the deposited data

How the results depend on the processing

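Over 16 alternatives, 404 values of single genes and shared probe sets were recomputed. Of these, 326 kept direction and side of the 10% FDR threshold, 21 lost the call, 31 gained it and 26 turned sign, and 0 were called higher. The 26 belong to 8 genes that were never called.

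With the replicate number as a block, which takes the numbers to pair the arrays, 2042 genes passed in place of 762, with 8 class I genes in place of 3, 25 of 79 genes of the other lists in place of 13, and 3 shared H2 probe sets in place of 1. With the block no gene or probe set named here lost its call. A low-value filter left out gave 245, 7 and 0 for all genes, other lists and shared sets, the 25th percentile 389, 8 and 0, and the variance filter 127, 5 and 0. The 75th percentile gave 2 shared sets and array centring 0. A second quantile normalization gave 1383 genes, 6 class I genes, 23 of the other lists and 2 shared sets. Array weights, whose estimation stopped before its tolerance, gave 4239, 10, 38 and 4, and the intensity trend 1069, 5, 22 and 2. The cause of these shifts was not tested, apart from the number of genes tested under each filter. Without 1 array the counts ran from 51 to 1285 for all genes, 0 to 4 for class I genes, 0 to 16 for the other lists and 0 to 1 for shared sets.

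Signs turned with the second quantile normalization for H2-DMa (-0.0015) and H2-Ke6 (-0.0074), and with array weights for H2-T10 (0.14), Mr1 (0.018) and Psme2 (0.085). Without 1 array the log2 fold change ran from -0.069 to 0.13 for H2-DMa, -0.026 to 0.040 for H2-Ke6, -0.13 to 0.043 for H2-T10, -0.11 to 0.070 for Mr1, -0.12 to 0.071 for Psme2, -0.21 to 0.066 for H2-Q4, -0.13 to 0.031 for Nlrc5 and -0.044 to 0.14 for Psmb9. Members under the array-wide median on most arrays have no test here, and the spread of 3 arrays per group limits the rest.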
